A study of Mus musculus with 8 samples.

Results

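The 9 genes described here are linked to B cell subsets of the mouse spleen: Fcer2a, Cxcr5, Cr2, Cd1d1, Cd9, S1pr3, Notch2, Dtx1 and Cd55. Some of them, such as Cd55, Cxcr5 and Cd9, are also carried by other cells. All 9 were chosen by name. Each had 1 probe set on the Affymetrix Mouse Gene 1.0 ST array that the probe annotation assigns to that gene alone. They are 9 of 19938 genes with a probe set of their own, and all 9 were among the 14953 genes tested. Values are log2 intensities of splenocyte RNA, 1 array per mouse.

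The 3 genotypes compared share a C57/B6 background, and RNA came from spleens dissociated with collagenase and DNase. The WT mice (n = 2) are wild type. The Sle1.3 mice (n = 3) are labelled lupus mice and carry Sle1.3, a lupus-susceptibility background. The Sle1.3/E2-2het mice (n = 3) are Sle1.3 mice haplodeficient for E2-2, the transcription factor encoded by Tcf4, so that the lupus background is shared by both Sle1.3 groups. Ages, and the cells in which the E2-2 allele is missing, are not given in the sources used here. The labels do not say whether mice were littermates. P-values rest on the spread between these mice, which the test partly shares across genes.

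Most B cells of the spleen are follicular cells, which recirculate and sit in follicles, while marginal zone cells stay at the border of the red pulp and answer blood-borne antigen. Follicular cells carry CD23 and use CXCR5 to follow CXCL13 into the follicle. Marginal zone cells carry high CD21, CD1d and CD9, and are held in place by sphingosine-1-phosphate receptors. They arise when a B cell receives a NOTCH2 signal, which is passed on by the DNA-binding protein RBPJ and turns on genes such as Dtx1. All these transcripts were read in whole splenocytes, where fewer cells of a type and less RNA per cell cannot be told apart.

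Of the 8 arrays, 2 stood apart. Both replicate 3 arrays, 1 of each Sle1.3 genotype, had a higher floor: their smallest linear values were 10.9 and 11.2, and those of the other arrays lay between 4.57 and 5.11. These arrays are called the second array set. That set holds no WT mouse, and the array set was a term in every test unless stated otherwise. Tcf4 was 9.02 and 8.80 in WT, 8.67, 8.63 and 9.06 in Sle1.3, and 8.18, 8.13 and 9.25 in Sle1.3/E2-2het mice. The Sle1.3/E2-2het array of the second set was thus the highest of all 8 for the targeted gene, and whether this probe set covers the deleted part is not known. Xist, the X-inactivation transcript, was 10.68 to 11.90 in the 3 Sle1.3 arrays and in the second-set Sle1.3/E2-2het array (11.82), and 3.75 to 4.29 in the other 4. The array labelled Sle1.3 replicate 3 goes against its male label. By Xist, Sle1.3 and WT cannot be told apart from female and male. The first-set Sle1.3/E2-2het and WT mice are all male. Arrays are called by their labels throughout, although these checks went against the label of 1 array for sex and did not show the lower Tcf4 in 1 labelled Sle1.3/E2-2het. The 14 pan-B cell genes measured, among them Ms4a1, Cd79a and Pax5, had mean log2 intensities of 10.48 to 10.69 in WT, 10.28 to 10.58 in Sle1.3 and 10.00 to 10.67 in Sle1.3/E2-2het arrays.

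Promoter windows of 4 members are given for reading the results, since 3 of these genes were lower than WT in at least 1 Sle1.3 genotype and Cr2 was not. They are RefSeq sequences on GRCm38.p6, from 250 bases before to 50 after a transcript start. Capitals mark TGGGAA or TTCCCA (the core letters bound by RBPJ) and the E-boxes CAGGTG (on the other strand CACCTG) and CAGCTG, the kind of site that E proteins such as E2-2 bind. Fcer2a, at chromosome 8, has 3 windows in the table.
Fcer2a, chr8:3694125-3694424, minus strand: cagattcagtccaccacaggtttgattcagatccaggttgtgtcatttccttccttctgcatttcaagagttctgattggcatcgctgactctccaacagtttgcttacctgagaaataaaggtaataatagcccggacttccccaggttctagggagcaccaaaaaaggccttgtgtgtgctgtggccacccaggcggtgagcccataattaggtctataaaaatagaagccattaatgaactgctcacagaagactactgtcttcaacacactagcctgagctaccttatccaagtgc
Fcer2a, chr8:3690812-3691111, minus strand: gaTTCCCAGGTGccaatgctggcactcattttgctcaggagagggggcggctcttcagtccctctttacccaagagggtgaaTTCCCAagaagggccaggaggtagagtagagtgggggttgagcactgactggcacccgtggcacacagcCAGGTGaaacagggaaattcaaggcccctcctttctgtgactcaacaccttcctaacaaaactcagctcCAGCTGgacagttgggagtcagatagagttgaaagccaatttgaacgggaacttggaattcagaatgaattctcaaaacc
Fcer2a, chr8:3690341-3690640, minus strand: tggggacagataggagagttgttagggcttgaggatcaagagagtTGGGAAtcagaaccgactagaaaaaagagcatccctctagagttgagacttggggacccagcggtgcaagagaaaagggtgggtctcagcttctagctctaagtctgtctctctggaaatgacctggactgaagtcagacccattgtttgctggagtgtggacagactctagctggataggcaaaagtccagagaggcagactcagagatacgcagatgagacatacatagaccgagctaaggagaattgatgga
Cd55, chr1:130462695-130462994, minus strand: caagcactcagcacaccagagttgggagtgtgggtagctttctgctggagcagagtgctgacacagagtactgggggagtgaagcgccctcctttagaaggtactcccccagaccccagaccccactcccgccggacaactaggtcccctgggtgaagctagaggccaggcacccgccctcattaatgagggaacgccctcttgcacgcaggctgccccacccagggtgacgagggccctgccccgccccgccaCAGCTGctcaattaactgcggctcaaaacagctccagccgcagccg
Notch2, chr3:98013288-98013587, plus strand: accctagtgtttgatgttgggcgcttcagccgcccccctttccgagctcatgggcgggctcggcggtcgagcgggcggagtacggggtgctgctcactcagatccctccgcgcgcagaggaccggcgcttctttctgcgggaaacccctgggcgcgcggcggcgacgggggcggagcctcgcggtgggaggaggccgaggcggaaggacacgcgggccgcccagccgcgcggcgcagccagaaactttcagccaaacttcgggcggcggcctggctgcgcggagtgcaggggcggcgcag
Cr2, chr1:195176670-195176969, minus strand: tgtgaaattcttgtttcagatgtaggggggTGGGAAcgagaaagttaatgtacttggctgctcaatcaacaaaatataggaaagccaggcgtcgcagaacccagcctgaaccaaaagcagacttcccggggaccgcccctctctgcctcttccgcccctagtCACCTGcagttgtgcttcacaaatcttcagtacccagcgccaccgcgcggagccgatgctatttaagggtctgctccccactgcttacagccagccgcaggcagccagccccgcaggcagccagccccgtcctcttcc
The second Fcer2a window holds the RBPJ core at 2 places and E-boxes at 3, and its first RBPJ core overlaps an E-box. The third Fcer2a window holds 1 RBPJ core, and the first holds none of the motifs searched. The Cr2 window holds 1 RBPJ core, at position -220 from the start, and 1 E-box. The Cd55 window holds 1 E-box, and the Notch2 window none of these letters. Searched on both strands, TGGGAA is in 25.6% of all 32851 windows of this length, CAGGTG in 20.2% and CAGCTG in 16.3%. Among the 7 members with a window, 4 held TGGGAA in at least 1 (Fcer2a, Cr2, Cd9 and S1pr3). Genes that were lower and genes that were not are both among them. Counted by window, as the shares of all windows are, TGGGAA was in 5 of 9 member windows, and 3 of the 9 are those of Fcer2a. A match describes the letters only, and the arrays hold no measure of binding.

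**Figure D1:**
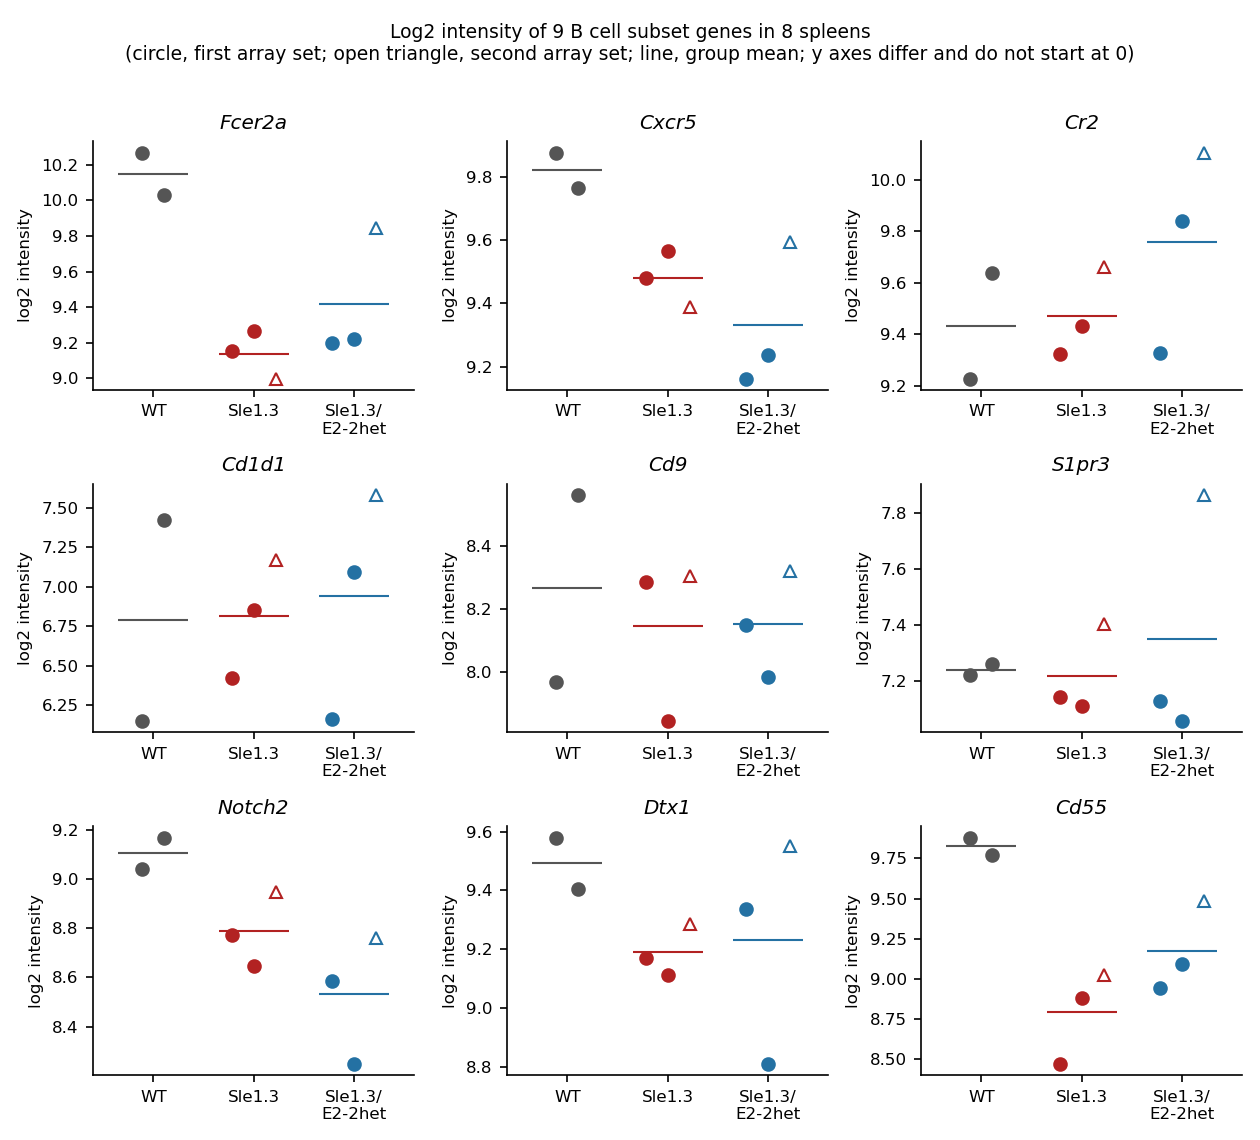
Log2 intensity (y axis, own scale per gene) of each of the 9 genes in each of the 8 arrays, by genotype (x axis). Circles are arrays of the first set, open triangles of the second, and lines are group means. Fcer2a, Cd55, Cxcr5 and Notch2 lie lower in every Sle1.3 and Sle1.3/E2-2het array than in both WT arrays. Dtx1 does so in Sle1.3 alone, and Cr2, Cd1d1, Cd9 and S1pr3 overlap.

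On the lupus background itself, Sle1.3 spleens had less transcript of Fcer2a and Cd55 than WT spleens. In all, 2 of the 9 members were lower and none higher at an adjusted p under 0.05. Over all genes tested 16.5% were lower and 7.46% higher in the same fit. The members' median log2 difference was -0.38, against -0.06 over all genes tested. In the first array set alone the same members, Fcer2a and Cd55, were lower, where 10.7% of genes were. Of the genes linked to marginal zone cells, Cr2, Cd1d1, Cd9 and S1pr3 had differences between -0.22 and -0.10, all with intervals that include 0. Notch2 and Dtx1, of the same kind, were lower by more and had intervals that exclude 0. Notch2 differed by -0.41 (interval -0.74 to -0.09) and Dtx1 by -0.41 (interval -0.79 to -0.02), and neither passed.

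Fcer2a encodes CD23, the low-affinity IgE receptor of follicular B cells. Its log2 intensity was 10.27 and 10.03 in WT mice. In Sle1.3 mice it was 9.15, 9.27 and 8.999, and in Sle1.3/E2-2het mice 9.20, 9.22 and 9.84. All 6 arrays of the Sle1.3 genotypes lay below both WT arrays, and the second-set Sle1.3/E2-2het array was the nearest to them. For this and the other members, the share of all genes that lay apart from the 2 WT arrays in this way was not counted. Between Sle1.3 and WT the difference was -1.08 (SE 0.19, adjusted p = 0.00326), that is 2.12-fold lower. The first set gave -0.94 (SE 0.15, adjusted p = 0.00445) and quantile normalization -1.03 (adjusted p = 0.00808).

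Cd55 encodes decay-accelerating factor, a membrane protein that breaks up complement convertases on many blood cells, B cells included. WT mice had 9.88 and 9.77. Sle1.3 mice had 8.47, 8.88 and 9.02, and Sle1.3/E2-2het mice 8.94, 9.09 and 9.48. No array of the Sle1.3 genotypes reached the WT arrays, and the lowest was Sle1.3 replicate 1. Sle1.3 differed from WT by -1.17 (SE 0.16, adjusted p = 0.000989), or 2.25-fold, and by -1.15 in the first set (SE 0.17, adjusted p = 0.00326). With labelled sex in place of the array set the call was lost (-1.07, adjusted p = 0.0983), whereas that of Fcer2a was kept (-1.29, adjusted p = 0.0372). That fit uses the label that goes against Xist, so neither outcome tells genotype from sex. Cd55b is a close relative of Cd55, and how much of its transcript the Cd55 probe set reads was not tested.

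Cxcr5 encodes the receptor for CXCL13, carried by follicular B cells and by T follicular helper cells. It was 9.88 and 9.76 in WT, 9.48, 9.57 and 9.39 in Sle1.3, and 9.16, 9.24 and 9.59 in Sle1.3/E2-2het mice. Both Sle1.3 genotypes lay below the WT arrays without overlap, by less than for Fcer2a. The difference between Sle1.3 and WT was -0.38 (SE 0.16, 95% interval -0.73 to -0.04, adjusted p = 0.0942).

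Notch2, the receptor whose signal makes marginal zone B cells, was 9.04 and 9.17 in WT. It was 8.77, 8.65 and 8.95 in Sle1.3 mice and 8.58, 8.25 and 8.76 in Sle1.3/E2-2het mice. Each Sle1.3 array was below both WT arrays, and the second-set one came nearest to them. Sle1.3 differed from WT by -0.41 (SE 0.15, adjusted p = 0.0641). With the replicate number as a block the difference was the same and passed (adjusted p = 0.0483), and in the first set alone it was -0.39 (adjusted p = 0.128). Dtx1, a Deltex ubiquitin ligase gene turned on by Notch signals, was 9.58 and 9.41 in WT, 9.17, 9.11 and 9.29 in Sle1.3, and 9.34, 8.81 and 9.55 in Sle1.3/E2-2het mice. Sle1.3 arrays lay below WT, and Sle1.3/E2-2het arrays were spread on both sides of the lower WT value. Its difference between Sle1.3 and WT was -0.41 (SE 0.18, adjusted p = 0.114).

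Cr2 encodes CD21 and CD35, receptors for complement fragments, and was 9.23 and 9.64 in WT, 9.32, 9.43 and 9.66 in Sle1.3, and 9.33, 9.84 and 10.11 in Sle1.3/E2-2het mice. The 3 genotypes overlapped, and the highest value was that of the second-set Sle1.3/E2-2het array. Sle1.3 differed from WT by -0.10 (95% interval -0.50 to 0.31, adjusted p = 0.736).

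Cd1d1 encodes CD1d, which presents lipids to natural killer T cells. It was 6.15 and 7.42 in WT, 6.42, 6.85 and 7.17 in Sle1.3, and 6.16, 7.09 and 7.58 in Sle1.3/E2-2het mice. Its values spread widely within each genotype, with replicate 1 the lowest in all 3. The difference between Sle1.3 and WT had a wide interval (-0.22, 95% interval -0.99 to 0.55, adjusted p = 0.678). Cr2 also had its lowest value in replicate 1 of every genotype. The standard error of the Cd1d1 difference was 0.35, and 0.18 with the replicate number as a block, which left the call as it was (adjusted p = 0.389). A near-identical copy, Cd1d2, may share its probes.

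**Figure D2:**
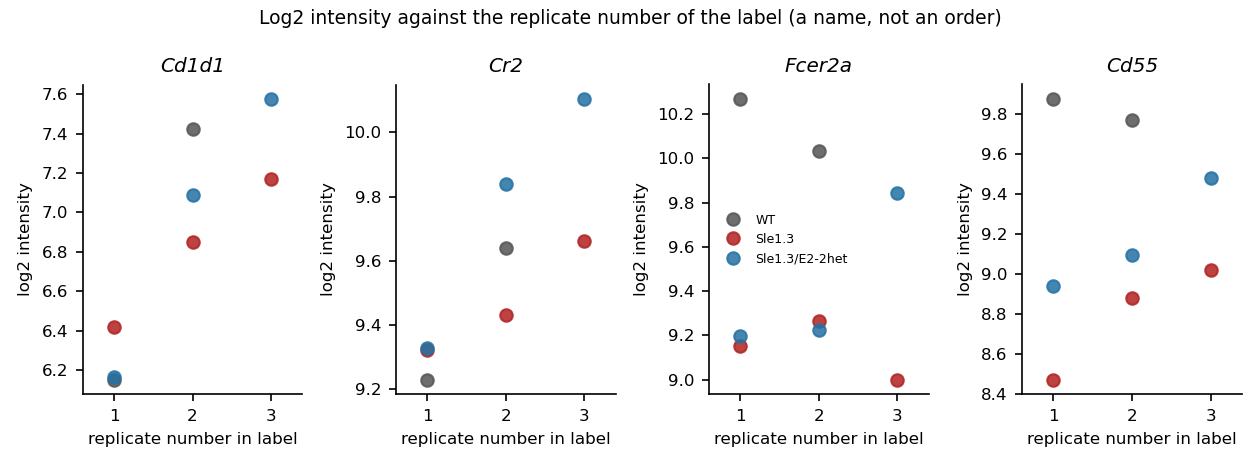
Log2 intensity (y axis) of Cd1d1, Cr2, Fcer2a and Cd55 against the replicate number in the label (x axis), 1 point per array, coloured by genotype. For Cd1d1 and Cr2 replicate 1 is the lowest array in all 3 genotypes and the genotypes overlap, whereas for Fcer2a and Cd55 both WT arrays lie above all others.

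Cd9, a tetraspanin of marginal zone B cells, plasma cells and platelets, was 7.97 and 8.56 in WT, 8.29, 7.84 and 8.31 in Sle1.3, and 8.15, 7.98 and 8.32 in Sle1.3/E2-2het mice. The WT mice spanned the range of all other arrays except Sle1.3 replicate 2. The difference between Sle1.3 and WT was -0.20 (95% interval -0.63 to 0.23, adjusted p = 0.475). Of 5 megakaryocyte and platelet genes 4 were higher in Sle1.3 than in WT, against 7.46% of all genes, with a median of 0.80. Their part in the Cd9 value was not tested. S1pr3, a receptor for sphingosine-1-phosphate, was 7.22 and 7.26 in WT, 7.15, 7.11 and 7.40 in Sle1.3, and 7.13, 7.06 and 7.86 in Sle1.3/E2-2het mice. Both WT arrays lay just above the first-set arrays of the other genotypes, and both second-set arrays were above WT. Its difference between Sle1.3 and WT was -0.19 (95% interval -0.53 to 0.14, adjusted p = 0.368).

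**Figure D3:**
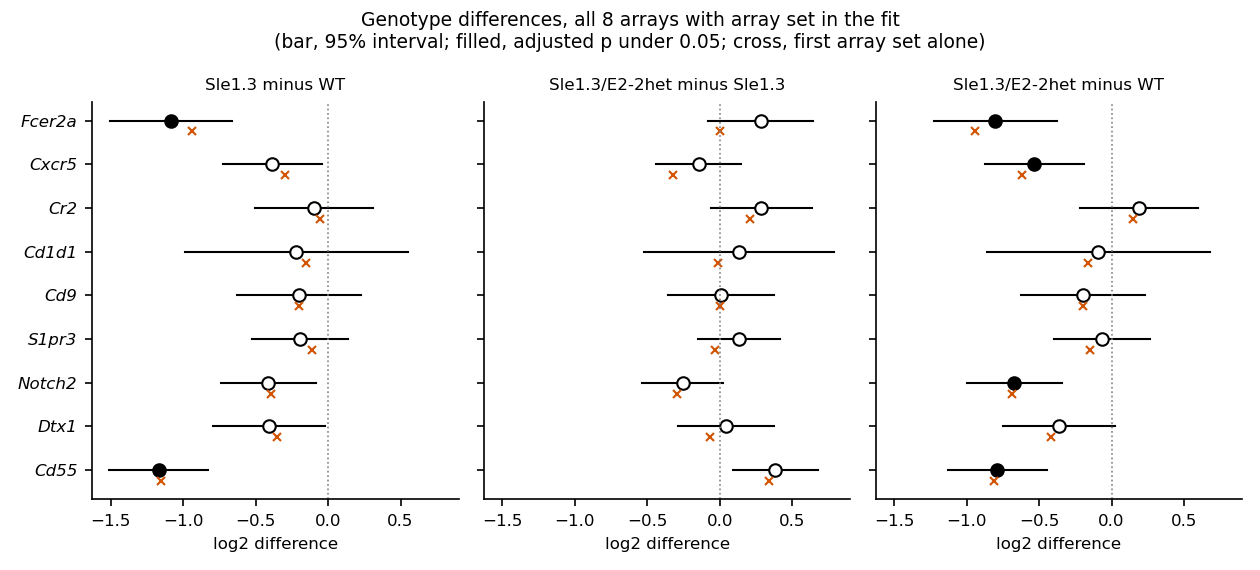
Log2 differences (x axis) of the 9 genes (y axis) in the 3 comparisons, with 95% intervals from limma on all 8 arrays; filled points passed an adjusted p of 0.05 and crosses are the first array set alone. Fcer2a and Cd55 are filled in both comparisons with WT, Cxcr5 and Notch2 in that of Sle1.3/E2-2het with WT, and none in the middle panel.

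The loss of 1 E2-2 copy is addressed by setting Sle1.3/E2-2het mice against Sle1.3 mice. By Xist, this sets males against females in the first array set, so genotype and sex cannot be told apart there. In the second set both arrays are female by Xist, and Tcf4 was higher in the Sle1.3/E2-2het array (9.25 against 9.06). In limma Tcf4 differed by -0.27 (SE 0.15, adjusted p = 0.575), and by -0.50 in the first set alone (adjusted p = 0.263). In the comparison of these genotypes no member passed the test in limma, and 1 of 9, Cd55, had an unadjusted p under 0.05. Over all genes tested 0.615% passed in either direction, 92 in all, and 262 with the replicate number as a block, again with no member. The members' median difference was 0.13, against 0.0017 over all genes tested, and -0.0098 in the first set. Cd55 differed by 0.38 (SE 0.13, 95% interval 0.09 to 0.67, adjusted p = 0.304), with the Sle1.3/E2-2het array higher by 0.47, 0.21 and 0.46 in the same-numbered replicates 1, 2 and 3. Notch2 differed by -0.26 (95% interval -0.53 to 0.02, adjusted p = 0.530), lower by 0.19 to 0.40 in the 3 same-numbered pairs. Cr2 differed by 0.29 (95% interval -0.06 to 0.63), Cd1d1 by 0.13, S1pr3 by 0.13, Dtx1 by 0.04 and Cd9 by 0.0062.

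Fcer2a, Cxcr5 and some other members ran apart in the 2 array sets. In the first set Fcer2a was level between the Sle1.3 genotypes (a difference of 7.6e-05), and in the second the Sle1.3/E2-2het array was higher by 0.84. Cxcr5 was lower by 0.32 in the first set and higher by 0.21 in the second. S1pr3 (-0.035 and 0.46), Cd1d1 (-0.0098 and 0.41) and Dtx1 (-0.068 and 0.26) also changed sign between the first and second set. A test of the difference between the sets gave 0.84 for Fcer2a (SE 0.27, unadjusted p = 0.00923, adjusted p = 0.997) and 0.53 for Cxcr5 (adjusted p = 0.997). No member passed that test, and 5 of 14953 genes did. The second set is 1 mouse of each genotype, and the Xist level of its Sle1.3/E2-2het mouse differs from that of the first-set mice of the same genotype.

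Sle1.3/E2-2het spleens had less transcript of Fcer2a, Cd55, Notch2 and Cxcr5 than WT. These were 4 of 9 members, with none higher, where 23.4% of all genes tested were lower and 10.7% higher. In the first set alone, which compares males with males by Xist, the same 4 genes were lower, again against 23.4% of genes. Both comparisons with WT use the same 2 WT mice and are not independent of each other. Fcer2a differed by -0.80 (SE 0.19, adjusted p = 0.0101), Cd55 by -0.79 (SE 0.16, adjusted p = 0.00459) and Notch2 by -0.67 (SE 0.15, adjusted p = 0.00730). Cxcr5 differed by -0.53 (SE 0.16, adjusted p = 0.0231).

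Cr2 differed by 0.19 (95% interval -0.22 to 0.60), Cd1d1 by -0.09, Cd9 by -0.20 and S1pr3 by -0.06, and Dtx1 by -0.36 (95% interval -0.75 to 0.02, adjusted p = 0.126). With labelled sex in place of the array set, or with neither term, none of the 4 passed (adjusted p = 0.0522 to 0.143), and all 4 stayed lower. Cxcr5 lost its call with quantile normalization (-0.38, adjusted p = 0.0812) and without WT replicate 1 or 2 (adjusted p = 0.0814 and 0.0816). It also lost it without Sle1.3/E2-2het replicate 1 or 2 (adjusted p = 0.102 and 0.0772). Notch2 lost its call without WT replicate 2 (adjusted p = 0.0609) and Fcer2a without WT replicate 1 (adjusted p = 0.0581).

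Some general B cell transcripts were also lower than in WT. Of the 14 pan-B cell genes 4 were lower in Sle1.3, against 16.5% of all genes, and 7 in Sle1.3/E2-2het, against 23.4%, with none higher in either. The medians were -0.31 and -0.49, and the other pan-B genes, such as Ms4a1 (0.09 and -0.07), did not pass. Cd37, a tetraspanin of B cells, differed by -0.86 and -0.91, and Ebf1, a B cell transcription factor, by -0.66 and -0.74. To set the members beside these, each array was also shifted by its mean over the 14 genes, which moved the median of all genes tested to 0.26 for Sle1.3 and 0.38 for Sle1.3/E2-2het. On that scale Fcer2a was -0.76 (adjusted p = 0.00772) and Cd55 -0.85 (adjusted p = 0.00253) in Sle1.3 against WT, so both were lower by more than the mean B cell gene. In Sle1.3/E2-2het against WT they were -0.33 (adjusted p = 0.241) and -0.32 (adjusted p = 0.263), and Cxcr5 (-0.07) and Notch2 (-0.20) did not pass. Cr2 was higher there (0.66, adjusted p = 0.0134), as were 5701 of the 14953 genes. In that fit limma gave all genes 1 standard error, 0.23.

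**Figure D4:**
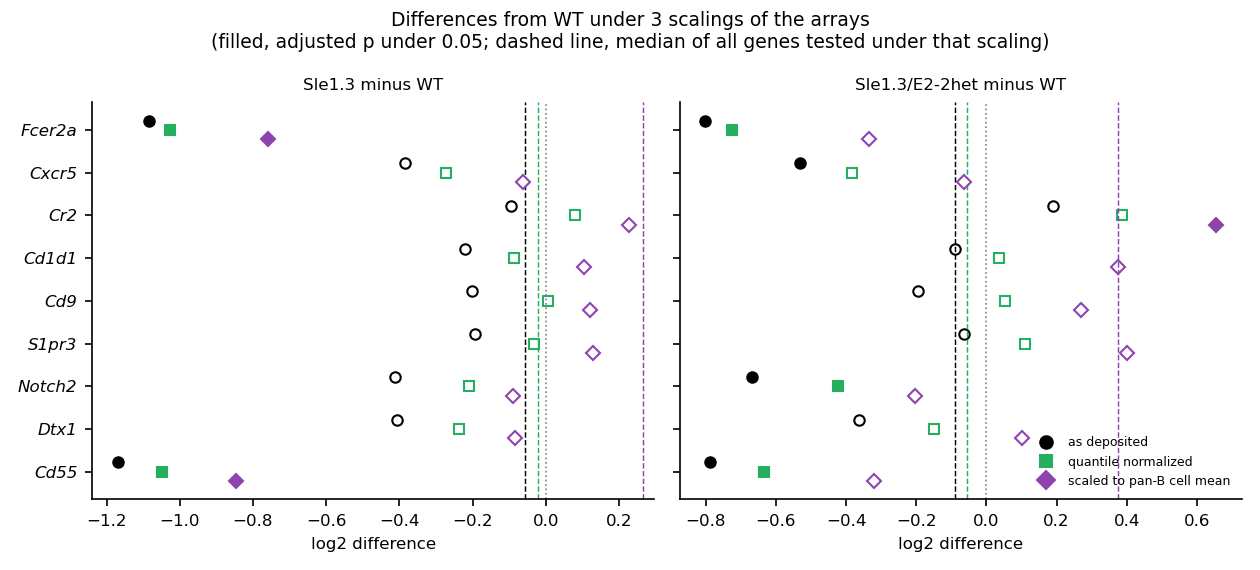
Log2 differences from WT (x axis) of the 9 genes (y axis) with the deposited values, after quantile normalization and after scaling to the 14 pan-B cell genes; filled points passed an adjusted p of 0.05 and dashed lines are the medians of all genes tested. Fcer2a and Cd55 are filled on all 3 scales in Sle1.3, and on 2 of the 3 in Sle1.3/E2-2het, where Cr2 is filled on the pan-B scale alone.

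The bright genes as a class were lower in the Sle1.3 genotypes, and most members are bright: 6 of the 9 had a mean above that of at least 92.5% of genes. Among genes above the 50th percentile of mean intensity the median difference from WT was -0.20 in Sle1.3 and -0.28 in Sle1.3/E2-2het. The interquartile range of an array was 2.77 and 2.97 in WT and 2.41 to 2.57 in the others. Quantile normalization, which evens that spread, put Cr2 at 0.08 and Cd9 at 0.0064 in Sle1.3 against WT, so the sign of these small differences rests on the scaling. It kept Fcer2a (-0.73, adjusted p = 0.0257), Cd55 (-0.63, adjusted p = 0.0208) and Notch2 (-0.42, adjusted p = 0.0478) as lower in Sle1.3/E2-2het than in WT. With the first set quantile normalized on its own, a setting chosen after seeing the data, Notch2 was at adjusted p = 0.0795 and Cxcr5 at 0.0568.

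Of 23 measured Notch signalling partners, 9 were lower and none higher in Sle1.3 than in WT, where 16.5% of all genes were lower, with a median of -0.30. The other 14 did not pass, nor did Notch2 itself. In Sle1.3/E2-2het against WT, where 23.4% of all genes were lower, 11 were lower and 1, the ligand gene Dll1, was higher (0.42, named after its values were seen), with a median of -0.40. Nrarp, a feedback gene turned on by Notch, differed by -1.23 (SE 0.18, adjusted p = 0.00145) and -0.83 (SE 0.18). Lfng, a sugar transferase that tunes Notch for its ligands, differed by -1.21 (SE 0.21, adjusted p = 0.00287) and -1.07 (SE 0.21). Psen2, a gamma-secretase subunit, differed by -0.73 and -0.75 (SE 0.14 each). Maml1, a co-activator that joins NOTCH and RBPJ on DNA, differed by -0.75 in Sle1.3/E2-2het (SE 0.15, adjusted p = 0.00476). In Sle1.3/E2-2het mice set against Sle1.3 mice none of the 23 passed, with a median of -0.01. Notch1, the receptor used by T cells, had the smallest p there (-0.52, adjusted p = 0.309). Many of these genes are also transcribed in T cells and myeloid cells, and of 7 T cell genes 1 was lower in Sle1.3 and 4 in Sle1.3/E2-2het against WT, with medians of -0.31 and -0.68.

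Other genes linked to marginal zone B cells did not move as a block. Of 11 measured, 4 were lower and 1 higher in Sle1.3 than in WT, with a median of -0.19. Of all genes tested 16.5% were lower and 7.46% higher there. Cnr2, a cannabinoid receptor that helps to hold B cells in the marginal zone, differed by -1.05 (SE 0.14, adjusted p = 0.000888) and by -1.01 in Sle1.3/E2-2het (adjusted p = 0.000836). Myof, a membrane repair protein, differed by -2.12 (SE 0.31) and -1.69 (SE 0.31). S1pr1, the sphingosine-1-phosphate receptor that guides lymphocyte egress, was also lower, by -1.15 (SE 0.19) and -0.62 (SE 0.19), while S1pr3 was not called. Mzb1, an endoplasmic reticulum protein of marginal zone B cells and of plasma cells, was higher in Sle1.3 than in WT (0.94, SE 0.17, adjusted p = 0.00378, chosen after its values were seen). It was lower in Sle1.3/E2-2het than in Sle1.3 (-0.90, SE 0.15, adjusted p = 0.0214). Mzb1 was the 1 gene of the 11 called there, against 0.615% of all genes. Of 6 plasma cell genes none was called in either of these comparisons. In the first set alone Derl3, an endoplasmic reticulum gene of plasma cells, was called in the same directions as Mzb1 (0.70, adjusted p = 0.0235, and -0.93, adjusted p = 0.0493).

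The partners of CXCR5 and of the follicle were mixed. Of 16 positioning and egress genes 4 were lower and 1 higher in Sle1.3 than in WT, and 4 lower and 2 higher in Sle1.3/E2-2het. Of all genes tested 16.5% were lower and 7.46% higher in Sle1.3, and 23.4% lower and 10.7% higher in Sle1.3/E2-2het. Cnr2 and S1pr1, given above, were among the lower genes in both comparisons, and are counted in both lists. Ccl19, a chemokine of T cell zones, was higher by 1.26 (SE 0.15, adjusted p = 0.000636) and 1.28 (SE 0.15). Vcam1, an adhesion molecule of stroma and macrophages, was higher in Sle1.3/E2-2het than in Sle1.3 (1.09, SE 0.20, adjusted p = 0.0329) and than in WT (1.10, SE 0.23). In the first set alone the former did not pass (1.22, adjusted p = 0.0620). For T follicular helper cells, which also carry CXCR5, none of 5 genes was called between Sle1.3 and WT. Between Sle1.3/E2-2het and WT, where Cxcr5 was called, 2 of the 5 were lower, Pdcd1 (-1.10, adjusted p = 0.00236) and Bcl6 (-0.71, adjusted p = 0.00795), and all 5 were lower in the first set alone. Set against Sle1.3, the Sle1.3/E2-2het mice had 2 of the 5 lower, Pdcd1 (-1.11, SE 0.16, adjusted p = 0.0115) and Tox2 (-0.79, SE 0.15, adjusted p = 0.0469). There 0.615% of all genes tested passed in either direction. In the first set alone Tox2 did not pass (adjusted p = 0.0590). Their part in the Cxcr5 values was not tested. For germinal centre B cells, 2 of 5 genes were higher in Sle1.3 than in WT. Of the 5, 3 were lower in the Sle1.3/E2-2het group than in Sle1.3 (2 in the first set alone), and 3 lower than in WT. Of 7 follicular dendritic and stromal cell genes, whose cells also carry CD21, none was called in Sle1.3 against WT, and the means were 6.16 to 6.51 in WT and 6.32 to 6.90 in Sle1.3 arrays. All 8 neutrophil genes were higher in both Sle1.3 genotypes than in WT, with medians of 3.24 and 2.59, and their part in the lower B cell values was not tested.

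Profiles across the 8 arrays, each centred on its median, were also compared, for the 4 called members against all genes tested. Genes most like Fcer2a were Treml2, Il21r and Thy1 (Pearson r = 0.99 each). Those most like Cd55 were Ppfibp2, Knop1 and Zkscan14 (r = 0.98 each). For Notch2 they were Adar, Larp4b and Arfgap1 (r = 0.99 each), and for Cxcr5 Thap7, Ctps2 and 1110008P14Rik (r = 0.98 each). The 8 arrays share their processing and hold only 2 WT mice, and these correlations are descriptions with no test.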

How the data were processed

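The members, gene lists and tests were chosen with earlier results of these data known. Per the labels, splenocyte RNA (250 ng per sample) was put on 1 array per mouse. The values the authors deposited, for 35556 probe sets, are linear intensity with no detection call. RMA and the Affymetrix Expression Console are named, per the submitters' processing notes; versions, roles and annotation build are not given in the sources used here. Here log2 was taken with no further scaling. Of the probe sets, 21789 had 1 gene symbol, 1621 several and 12146 none listed; only the first kind was used. The probe set with the highest mean stood for a gene, and genes with a mean log2 above the 25th percentile (5.01) were tested.

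Differences were tested two-sided with limma 3.58.1 in R 4.3.3 (lmFit, eBayes) in 1 fit to all 8 arrays with genotype and array set as terms (4 residual degrees of freedom), with Benjamini-Hochberg adjustment over 14953 genes at 0.05. Array set, split at the widest gap in lowest intensity, replaced labelled sex because 1 sex label goes against Xist. Sle1.3 and Sle1.3/E2-2het share the estimate of the set shift, so that each comparison with WT draws on both; the first set alone does not. Replicate numbers were used as a block in an alternative fit. Same-numbered Sle1.3 and Sle1.3/E2-2het arrays deviated together from their group means (r = 0.573, 0.369 and 0.618 across genes). Differently numbered ones gave -0.536 to 0.119, and same-numbered pairs with WT -0.0768 to 0.214. Array set was left in these deviations, and both replicate 3 arrays are the second set. The r values that involve replicate 3 therefore cannot tell pairing from array set. Within the first set, same-numbered Sle1.3 and Sle1.3/E2-2het arrays gave 0.573 and 0.369, and differently numbered ones 0.119 and -0.0194. Why same-numbered arrays were more alike was not tested. Named genes are all members, up to 3 genes of smallest p for a described list, and the 3 genes most like each called member. The number of arrays limits the precision.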

Additional observations from a re-analysis of the deposited data

How the results depend on the processing

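Fcer2a and Cd55 in Sle1.3 against WT stayed lower and past the threshold without any 1 array (highest adjusted p = 0.0285 and 0.0147), where 2 members were always called. For Sle1.3/E2-2het against WT 2 to 4 were called, and for Sle1.3/E2-2het against Sle1.3 none. Genes called were 3585, 5092 and 92 in Sle1.3 against WT, Sle1.3/E2-2het against WT and Sle1.3/E2-2het against Sle1.3. Without 1 array they were 1107 to 3649, 1634 to 5214 and 26 to 165. In Sle1.3 against WT 2367 were called in the first set alone, 2229 after quantile normalization, 1262 with both, 879 with group only and 199 with labelled sex, which called 1 member. In Sle1.3/E2-2het against WT the counts were 2780 after quantile normalization, 2571 with the first set alone as well (2 members), 1076 with group only (0 members) and 492 with labelled sex (0 members). Scaling to pan-B genes left 1 member called, Cr2, and turned the split of genes to 5701 higher and 245 lower, and to 2922 higher and 397 lower in Sle1.3 against WT. In Sle1.3/E2-2het against Sle1.3 the counts were 262 with the replicate number as a block, 253 scaled to pan-B genes, 2 with group only and 0 with labelled sex (limma; 392 at an unadjusted p under 0.05). The replicate block changed no member's call other than that of Notch2 in Sle1.3 against WT.

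Some differences that were not called changed sign, and the cause was not tested. In Sle1.3 against WT, with group only Cd1d1 was 0.028 and Cr2 0.038. After quantile normalization Cd9 was 0.0064 and Cr2 0.079, and with the first set alone as well Cr2 was 0.094 and S1pr3 0.041. Scaled to pan-B genes Cd1d1 was 0.10, Cd9 0.12, Cr2 0.23 and S1pr3 0.13. In Sle1.3/E2-2het against WT, with group only Cd1d1 was 0.16 and S1pr3 0.11, and with labelled sex 0.088 and 0.027. After quantile normalization Cd1d1 was 0.035, Cd9 0.052 and S1pr3 0.11, and with the first set alone as well Cd9 was 0.075 and S1pr3 0.040. Scaled to pan-B genes Cd1d1 was 0.38, Cd9 0.27, Dtx1 0.10 and S1pr3 0.40. In Sle1.3/E2-2het against Sle1.3, in the first set alone Cd1d1 was -0.0098, Dtx1 -0.068 and S1pr3 -0.035, and with quantile normalization as well Cd1d1 was -0.014 and S1pr3 -0.0011. Median centring put Cd9 at -0.036. Without 1 array, Sle1.3 against WT ran from -0.86 to 0.42 for Cd1d1, -0.50 to 0.094 for Cd9 and -0.30 to 0.11 for Cr2. Sle1.3/E2-2het against WT ran from -0.73 to 0.55 for Cd1d1, -0.49 to 0.10 for Cd9, -0.016 to 0.40 for Cr2 and -0.15 to 0.020 for S1pr3. Sle1.3/E2-2het against Sle1.3 ran from -0.10 to 0.43 for Cd1d1, -0.12 to 0.13 for Cd9, -0.076 to 0.22 for Dtx1 and -0.035 to 0.20 for S1pr3. Where 1 WT array was left, it was assumed to vary like the other groups. No detection call bounds the dimmer members.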

Other observations

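Genes that work beside Cr2 and Cd55 were read from lists not described above. CD21 signals with CD81 and other partners, and CD55 shares its task with further complement regulators. Of 5 such genes tested, 1 was lower in Sle1.3 than in WT, against 16.5% of all genes. In Sle1.3/E2-2het against WT 1 was lower and 2 were higher, where 23.4% and 10.7% of all genes were. The lower gene in both was Cr1l, which encodes Crry, the mouse regulator of C3 convertases (-0.79, SE 0.17, adjusted p = 0.00708, and -0.98, SE 0.17, adjusted p = 0.00235). Cd59a, which blocks the membrane attack complex, was higher in Sle1.3/E2-2het than in WT (1.26, SE 0.22, adjusted p = 0.00274), and so was Ifitm1 (1.64, SE 0.50, adjusted p = 0.0270). Cd55 and Cr1l, both regulators of convertases, were thus lower, and Cd59a higher, in the same spleens. All 4 erythroid genes tested were also higher in Sle1.3/E2-2het than in WT, with a median of 2.01, and their part in the Cd59a value was not tested.

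The tetraspanins other than Cd9 were mostly not called. Of 11, 1 was lower in Sle1.3 than in WT (Cd37), against 16.5% of all genes. In Sle1.3/E2-2het 2 were lower (Cd37 and Cd151), against 23.4%, and 1 higher (Tspan33, 0.84, SE 0.22, adjusted p = 0.0147), against 10.7%.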
